A study of Sus scrofa with 8 samples.

Results

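The gluconeogenesis genes were taken as every gene of the deposited expression table whose symbol was *PCK1*, *PCK2*, *G6PC*, *G6PC1*, *FBP1*, *SLC37A4*, *PPARGC1A* or *TAT*. Of these 8 symbols 7 were found among the 20430 genes of the table, since the glucose phosphatase gene is listed there as *G6PC* and not as *G6PC1*. The rule selects by gene name and uses no expression value. All 7 genes passed the filter on low values, a mean of at least 0.1 FPKM, that left 14780 genes for the test.

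The 24 animals were male Large White x Landrace pigs that first ate a steatotic diet for 1 month, rich in cholate, cholesterol, fructose and saturated fat and poor in methionine and choline. They were then split into 12 pigs that received this diet with 0.5% squalene, a triterpene of olive oil, and 12 control pigs that stayed on it without squalene. This second period lasted 1 further month in both groups. Both groups were therefore steatotic and no animals on an ordinary diet were included, the ages are not stated, and the livers were collected after an overnight fast. Equal amounts of liver RNA of 3 pigs were combined, which gave 4 squalene pools and 4 control pools. Expression was given in each pool as FPKM, a fragment count divided by gene length and by library size. The estimated counts that the authors added over the pools of a diet came to 75.93 M for squalene and 76.75 M for control, or on average 18.98 M and 19.19 M per pool. The p-values below describe the spread between pools, which average their 3 animals.

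Gluconeogenesis builds glucose from lactate, glycerol and amino acids, and in a fasted animal the liver carries out most of it. Most steps run glycolysis backwards, and separate enzymes bypass the steps of glycolysis that cannot be reversed. Phosphoenolpyruvate carboxykinase, in a cytosolic (*PCK1*) and a mitochondrial (*PCK2*) form, makes phosphoenolpyruvate from oxaloacetate. Fructose bisphosphatase (*FBP1*) removes a phosphate from fructose bisphosphate. Glucose phosphate is carried into the endoplasmic reticulum by the transporter *SLC37A4* and is split there into free glucose by the catalytic subunit *G6PC*. The coactivator *PPARGC1A* drives transcription of the pathway in fasting, and tyrosine aminotransferase (*TAT*), the first enzyme of tyrosine breakdown, is a classic glucocorticoid target in rodent liver that feeds carbon toward the pathway. Glucagon acts on several of these genes through cyclic AMP and insulin represses them.

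The genes lie on 7 different chromosomes of Sscrofa11.1. *PCK1* is at chr17:57930507-57936523 on the plus strand and has 10 exons, *PCK2* is at chr7:75187195-75197613 on the minus strand with 10 exons, and *FBP1* is at chr10:27588609-27622225 on the plus strand with 7 exons. *G6PC* is at chr12:19965885-19975783 on the minus strand, and its annotated transcript of 1074 bases in 5 exons holds the coding sequence only. *SLC37A4* is at chr9:46247278-46254068 and *TAT*, with 12 exons, at chr6:14571311-14583203, both on the minus strand. *PPARGC1A* spans chr8:17841844-18527953 on the minus strand, has several annotated starts and is the only one of the 7 that other annotated genes, 2 noncoding loci, overlap. No source used here says whether counting used the strand, and the overlap was taken over the whole gene span, not over exons. Whether these loci share counted reads with *PPARGC1A* is therefore not known.

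The cyclic AMP response element TGACGTCA, the full site through which glucagon signalling can act, was searched on both strands from 250 bases before to 50 bases after the annotated gene start. It was found in the window of *PCK1* and in none of the other 6, and 2.25% of 19569 protein-coding genes held it in the same window. *PCK1*, *SLC37A4* and *PPARGC1A* have a further start, that of their curated RefSeq transcript, which was looked at after the first search. The window at this start held the element for *PCK1*, where it is the same copy, and for *PPARGC1A*, where it lies in an intron of the longer transcripts, and not for *SLC37A4*. The bases before the gene start of *PCK1* and the curated start of *PPARGC1A* are shown because they hold the complete element, written in capitals and read 5′ to 3′ on the strand of the gene, for *PCK1* from chr17:57930257-57930506 and for *PPARGC1A* from chr8:17946935-17947184.
PCK1: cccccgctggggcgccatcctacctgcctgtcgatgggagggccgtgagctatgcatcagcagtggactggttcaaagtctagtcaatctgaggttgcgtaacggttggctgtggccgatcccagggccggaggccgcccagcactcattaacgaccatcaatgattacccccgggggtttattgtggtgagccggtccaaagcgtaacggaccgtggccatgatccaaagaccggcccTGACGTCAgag
PPARGC1A: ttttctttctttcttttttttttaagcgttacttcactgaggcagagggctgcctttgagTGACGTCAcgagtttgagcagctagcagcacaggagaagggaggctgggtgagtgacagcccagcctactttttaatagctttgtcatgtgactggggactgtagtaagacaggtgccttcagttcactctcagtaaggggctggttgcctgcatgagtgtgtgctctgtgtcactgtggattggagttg
The element began 11 bases before the gene start of *PCK1*, which is 59 bases before its curated start, and 190 bases before the curated start of *PPARGC1A*. Its core TGACG, which is part of the full element, occurred in 24.2% of all windows, and among the gene starts only *PCK1* held it. The forkhead site TGTTTAC was in none of the 7 windows, with 2.65% of all windows holding it. The letters AGAACA, 1 arm of a glucocorticoid receptor site, occurred once in the window of *TAT*, 63 bases before its start, and once in that of *SLC37A4*, 127 bases before its gene start, with 12.1% of all windows holding it. It was absent from the window at the curated start of *SLC37A4*. These are matches of letters, not measured binding sites, and for *G6PC* the window ends in the coding sequence because its annotated start is the start codon.

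None of the 7 genes differed between the diets past the threshold, and in all 7 the ranges of squalene and control pools overlapped. The adjusted p of limma was 0.9997 or more for each of them (Benjamini-Hochberg over 14780 genes, n = 4 pools a diet). Over all genes tested limma called 0% in either direction, while 2.08% were higher and 2.28% lower on squalene at an unadjusted p under 0.05, together 4.36% or 645 genes, and none of the 7 was among them. Ranges without overlap occurred for 1.13% of all genes in the higher and 1.54% in the lower direction, together 2.67%. In bulk liver, fewer cells of a type and less RNA per cell cannot be told apart.

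**Figure D1:**
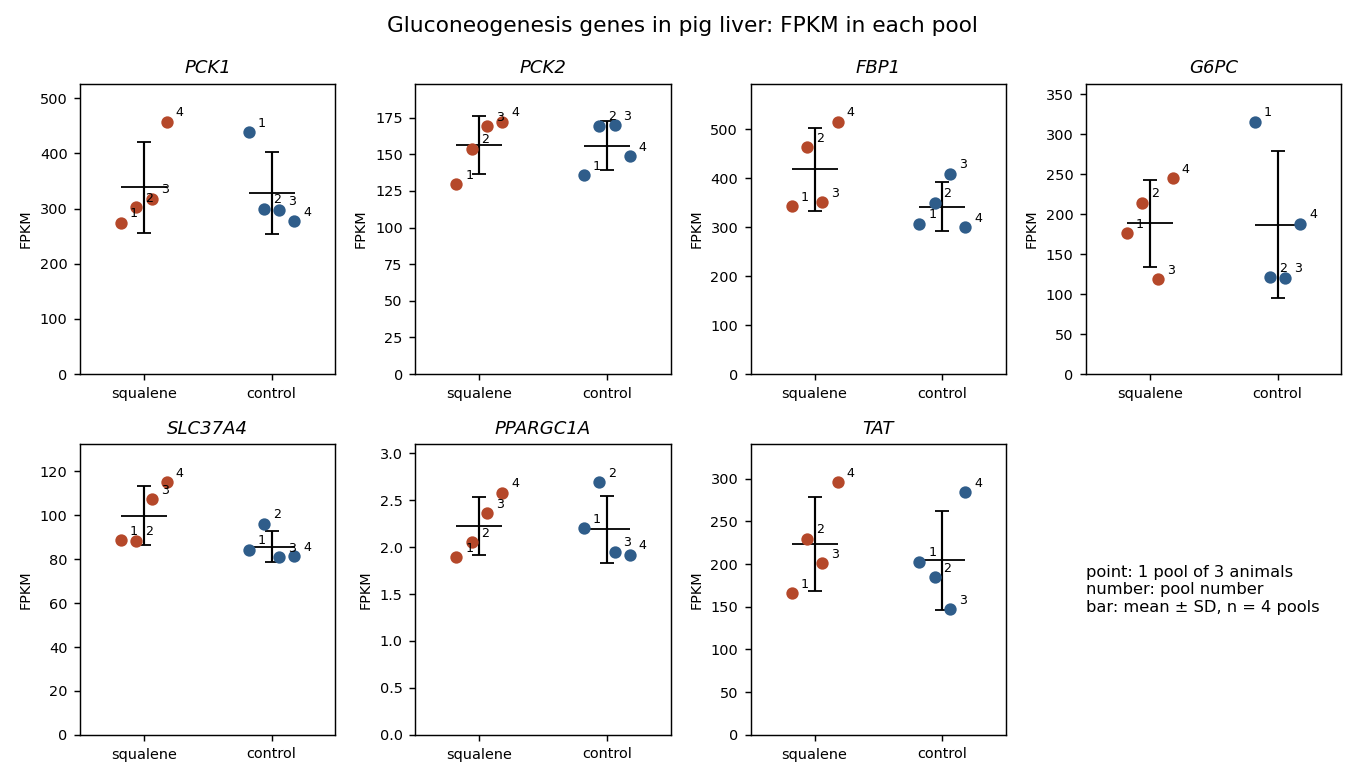
FPKM of the 7 genes (y axis, from 0) in each squalene pool (left, red) and control pool (right, blue), where a point is 1 pool with its pool number and the bar is the mean ± SD of 4 pools. The pools of the diets overlap in every panel, and squalene pool 4 is the highest squalene pool for each gene.

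For the carboxykinases, which commit carbon to the pathway, the fitted differences were at most 0.04 on the log2 scale. *PCK1* had 274.81, 302.92, 317.81 and 457.91 FPKM in squalene pools 1 to 4, against 438.88, 299.52, 297.44 and 277.15 FPKM in control pools 1 to 4. One pool of each diet was high, squalene pool 4 and control pool 1, and the other 6 lay between 274.81 and 317.81 FPKM. The means were 338 ± 81.7 FPKM on squalene and 328 ± 74.4 FPKM on control (SD, n = 4 pools each), which is 0.04 on the log2 scale (standard error 0.19, 95% interval -0.38 to 0.46). This gene took the opposite sign without squalene pool 4, at -0.11, and without control pool 4, at -0.03.

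The mitochondrial *PCK2* was steadier. It had 129.72, 154, 169.41 and 172.42 FPKM in squalene pools, against 135.8, 169.63, 170 and 148.67 FPKM in control pools. Pool 1 was the lowest pool of each diet, and the ranges nearly coincided. The log2 fold change was 0.00 with a 95% interval of -0.27 to 0.27, which in linear terms runs from 0.830-fold to 1.21-fold.

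*FBP1* had the largest fitted difference of the 7. It had 342.76, 462.76, 351.33 and 515.4 FPKM in squalene pools, against 307.03, 349.65, 408.78 and 300.1 FPKM in control pools. Squalene pools 2 and 4 lay above all control pools, while squalene pools 1 and 3 lay within the control range. The means were 418 ± 84.8 FPKM on squalene and 341 ± 49.98 FPKM on control (SD, n = 4 pools each), a fold of 1.22 with a 95% interval of 0.950 to 1.55 and an unadjusted limma p of 0.108 (adjusted p = 0.9997).

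*G6PC*, whose product releases free glucose, varied most from pool to pool. It had 176.53, 214.28, 118.63 and 245.09 FPKM in squalene pools, against 316.11, 121.47, 120.62 and 188.4 FPKM in control pools. High and low pools occurred in both diets, and the highest pool of all was control pool 1. The means were 189 ± 54.4 FPKM on squalene and 187 ± 92.0 FPKM on control, and the log2 fold change of 0.08 had a 95% interval of -0.63 to 0.79, the widest of the 7. Changes of up to 1.73-fold upward or to 0.648-fold therefore remained within the interval. Leaving out squalene pool 4, control pool 2 or control pool 3 gave log2 fold changes of -0.06, -0.08 and -0.09.

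*SLC37A4*, the transporter that supplies *G6PC*, had 88.57, 88.45, 107.28 and 115.04 FPKM in squalene pools, against 84.37, 96.17, 81.03 and 81.29 FPKM in control pools. Only control pool 2 reached into the squalene range. The means were 99.8 ± 13.5 FPKM on squalene and 85.7 ± 7.13 FPKM on control (SD, n = 4 pools each), with a log2 fold change of 0.21, a 95% interval of -0.04 to 0.47 and an unadjusted limma p of 0.0917 (adjusted p = 0.9997). This was the smallest unadjusted p among the 7 genes.

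The coactivator *PPARGC1A* was expressed at a far lower level than the enzymes. It had 1.89, 2.05, 2.36 and 2.58 FPKM in squalene pools, against 2.2, 2.69, 1.95 and 1.92 FPKM in control pools. The highest pool was control pool 2 and the lowest was squalene pool 1. The log2 fold change was 0.02 with a 95% interval of -0.32 to 0.36. The 4 pools of a diet together held 1036 estimated fragments on squalene and 1058 on control for this gene, the fewest of the 7.

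*TAT* had 165.79, 229.88, 200.68 and 295.76 FPKM in squalene pools, against 202.72, 184.57, 147.07 and 284.39 FPKM in control pools. One pool of each diet, number 4 in both, was high. The log2 fold change was 0.13 (standard error 0.22, 95% interval -0.35 to 0.62), and it was -0.01 without squalene pool 4 and also without control pool 3.

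**Figure D2:**
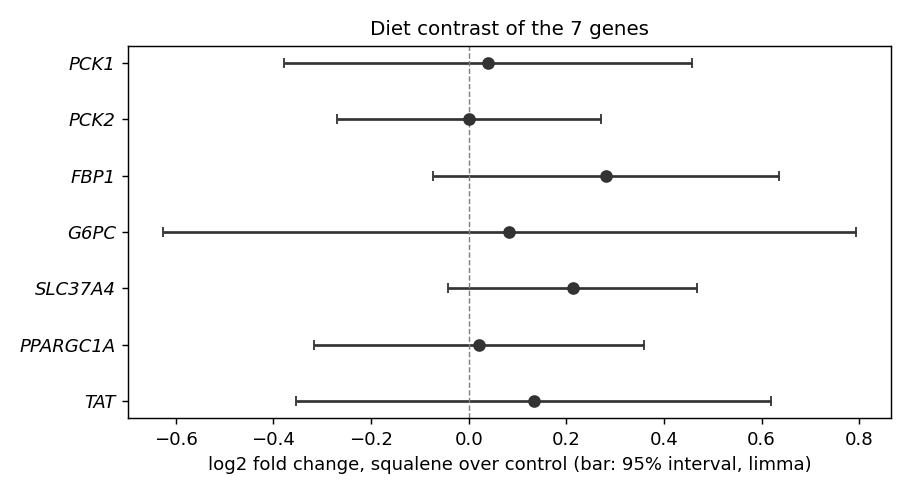
Log2 fold change of squalene over control for each of the 7 genes (x axis), with its 95% interval from limma as a bar and the dashed line at 0. Every interval includes 0, and the interval of *G6PC* is the widest.

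The fitted value was above 0 for 7 of 7 genes, where 47.1% of all genes were above 0, although *PCK2* was at -0.00042 after quantile normalization and 5 of the 7 changed sign when a single pool was left out. The median of the 7 log2 fold changes was 0.08, beside -0.01 over all genes tested. Squalene pool 1 stood apart from the other 7 pools by its interferon-stimulated genes, with 1547 FPKM of *ISG15* against 104 to 352 FPKM elsewhere. It was the lowest squalene pool for *PCK1*, *PCK2*, *FBP1*, *PPARGC1A* and *TAT*. Without it the log2 fold change was 0.37 for *FBP1* (unadjusted p = 0.0463) and 0.27 for *SLC37A4* (unadjusted p = 0.0499), both with a limma adjusted p of 0.999. It was 0.13, 0.09, 0.10, 0.09 and 0.26 for *PCK1*, *PCK2*, *G6PC*, *PPARGC1A* and *TAT*. Leaving out control pool 3 also gave 0.37 for *FBP1*, and leaving out control pool 2 also gave 0.27 for *SLC37A4*. Squalene pool 4 was the highest squalene pool for all 7 genes. Leaving out that pool gave -0.11 for *PCK1*, -0.05 for *PCK2*, -0.06 for *G6PC*, -0.05 for *PPARGC1A* and -0.01 for *TAT*. It gave 0.17 for *FBP1* and 0.14 for *SLC37A4*. The part of the interferon signal in these values was not tested.

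Since FPKM is scaled per length, the levels of the genes could be set in order within each pool. *FBP1* averaged 380 FPKM over the 8 pools and *PCK1* 333 FPKM, with *FBP1* higher in 7 of 8 pools. This pair of neighbours did not differ beyond its spread (exact sign-flip test over 8 pools, adjusted p = 0.216 over 6 pairs of neighbours). *PCK1* stood above *TAT*, which averaged 214 FPKM, in 7 of 8 pools (exact adjusted p = 0.0313). *TAT* and *G6PC*, at 188 FPKM, and then *G6PC* and *PCK2*, at 156 FPKM, did not differ beyond their spread (exact adjusted p = 0.216 and 0.484). *PCK2* was above *SLC37A4*, at 92.8 FPKM, in 8 of 8 pools with ranges that did not overlap (exact adjusted p = 0.0234). *SLC37A4* in turn was above *PPARGC1A*, at 2.21 FPKM, in 8 of 8 pools (exact adjusted p = 0.0234). The level of *G6PC* carries a limit, since it was scaled to a coding length of 1074 bases.

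The genes differed more in their spread than in their response to the diet. Within a diet the SD of log2 FPKM was 0.566 for *G6PC*, larger than that of 96.8% of the 4400 genes at 10 FPKM or more. *TAT* at 0.374, *PCK1* at 0.311 and *FBP1* at 0.252 exceeded 90.8%, 85.8% and 77.0% of those genes. *PCK2* at 0.173 and *SLC37A4* at 0.160 were close to the median of 0.174. *PPARGC1A* at 0.204 was close to the median of 0.214 of the 6641 genes between 1 and 10 FPKM. The highest pool was 2.66 times the lowest for *G6PC* and 1.33 times for *PCK2*.

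Ratios within a pool compare a gene with its counterpart free of any scaling of the pool. The cytosolic to mitochondrial ratio *PCK1*/*PCK2* was 2.12, 1.97, 1.88 and 2.66 in squalene pools, against 3.23, 1.77, 1.75 and 1.86 in control pools. All pools held more of the cytosolic form, and control pool 1 stood apart. The ratio of *FBP1* to the liver phosphofructokinase *PFKL*, which catalyse opposite reactions, ranged from 19.3 to 29.9 on squalene and from 16.7 to 23.9 on control (log2 difference 0.23, exact permutation p = 0.286, adjusted p = 0.8 over 4 ratios). *G6PC* to its transporter *SLC37A4* ranged from 1.11 to 2.42 on squalene and from 1.26 to 3.75 on control (log2 difference -0.13, exact permutation p = 0.771, adjusted p = 0.857). *PCK1*/*PCK2* had a log2 difference of 0.04 (exact permutation p = 0.857). With 70 assignments of the pools the smallest p that this test can give is 0.0286.

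The pools that were high or low differed from gene to gene. Squalene pool 4 was above the mean of the 8 pools for all 7 genes, by 0.15 for *PCK2* up to 0.51 for *TAT* on the log2 scale. Control pool 1 was 0.84 above the mean for *G6PC* and 0.42 above it for *PCK1*, but below it for *PCK2*, *FBP1*, *SLC37A4* and *TAT*. Control pools 2 and 3 were 0.54 and 0.55 below the mean for *G6PC* while 0.13 above it for *PCK2*.

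**Figure D3:**
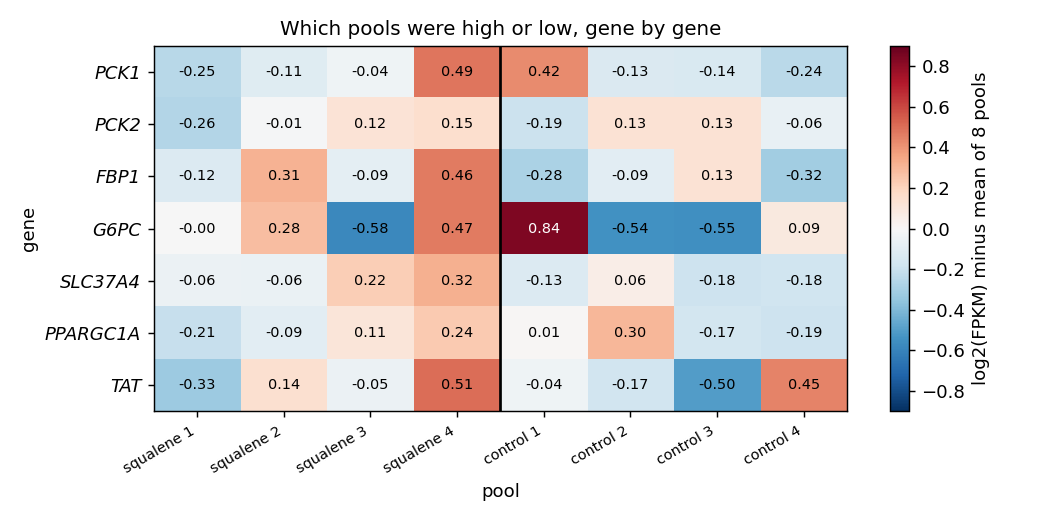
Deviation of log2 FPKM from the mean of the 8 pools for each gene (rows) in each squalene pool (left of the line) and control pool (right). Squalene pool 4 is above 0 in every row, and control pool 1 reaches 0.84 for *G6PC* and 0.42 for *PCK1* but is below 0 in 4 rows.

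Covariation was computed for all 21 pairs of the 7 genes over the 8 pools on log2(FPKM + 0.1), with exact permutation tests. None passed an adjusted p of 0.05, and 1 had an unadjusted p below it. The median Pearson's r was 0.36, beside 0.11 over all pairs of genes at 1 FPKM or more. It was above 0 for 85.7% of the pairs, beside 59.8% of all pairs, and at least 0.5 for 33.3%, beside 17.1%. Pairs share pools and genes, so these shares are descriptions. The highest value was that of *SLC37A4* and *PPARGC1A* (r = 0.77, exact permutation p = 0.026, adjusted p = 0.470, rho = 0.64, exact permutation p = 0.0962, adjusted p = 0.483). It was 0.75 without the 2 pools farthest from the median of *SLC37A4*, and between 0.69 and 0.88 with each pool left out in turn. After subtracting the mean of each diet it was 0.93 (exact permutation within diets, p = 0.00694, adjusted p = 0.146 over 21 pairs).

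*PCK1* and *G6PC*, the genes at the entry and the exit of the pathway, had r = 0.66 (exact permutation p = 0.0914, adjusted p = 0.470, rho = 0.43, exact permutation p = 0.299, adjusted p = 0.571). With each pool left out in turn r was between 0.45 and 0.72. It was -0.52 without both squalene pool 4 and control pool 1, the 2 pools farthest from the median of *PCK1*. The remaining pools span only 274.81 to 317.81 FPKM of *PCK1*, a narrow range for a correlation. The carboxykinases showed the reverse, with r = 0.10 over 8 pools (exact permutation p = 0.834, adjusted p = 0.866, rho = 0.43, exact permutation p = 0.299, adjusted p = 0.571) and 0.80 without these 2 pools. *PCK2* and *G6PC* ran in opposite directions (r = -0.53, exact permutation p = 0.176, adjusted p = 0.470, rho = -0.24, exact permutation p = 0.582, adjusted p = 0.764), and r was negative with each pool left out in turn, from -0.77 to -0.32. For *G6PC* and *SLC37A4*, which act as one system, r was near 0 (r = -0.07, exact permutation p = 0.866, adjusted p = 0.866, rho = -0.02, exact permutation p = 0.977, adjusted p = 0.977).

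**Figure D4:**
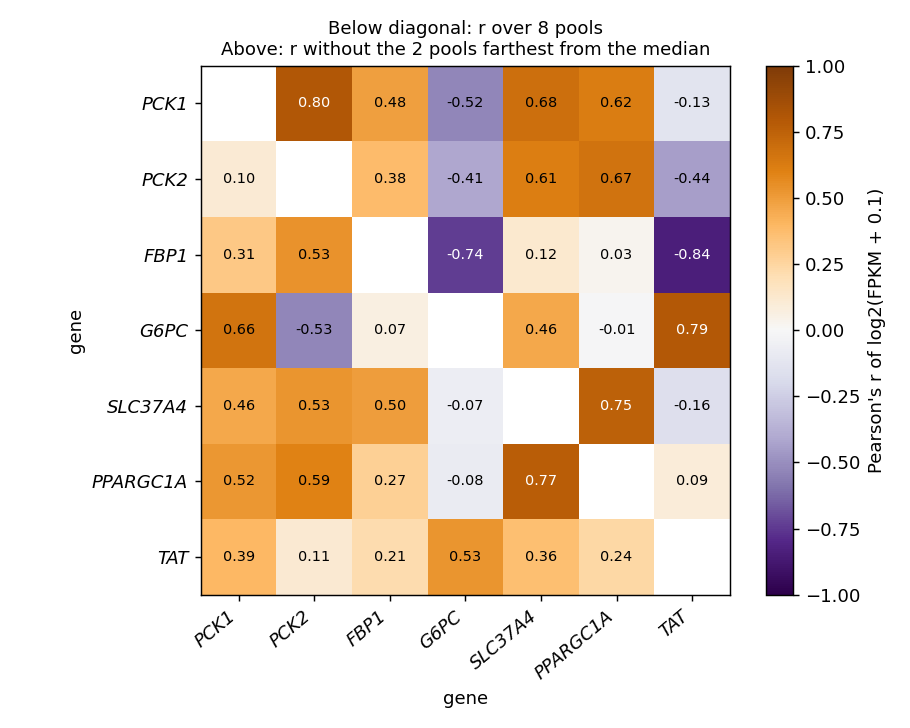
Pearson's r of log2(FPKM + 0.1) for the 21 pairs of genes, over the 8 pools below the diagonal and without the 2 pools farthest from the median of the gene listed first above it. The cell of *PCK1* and *G6PC* is 0.66 below and -0.52 above the diagonal, while that of *SLC37A4* and *PPARGC1A* is 0.77 and 0.75.

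The genes whose pattern was most like each member were looked up among 11040 genes at 1 FPKM or more, by r over the 8 pools. Each of the 7 genes had such partners with r above 0.9 among so many genes, so these are descriptions without a test. The diet means were not subtracted here. *FBP1* was most like *HGD*, the homogentisate dioxygenase of tyrosine breakdown (r = 0.96), followed by the fatty acid elongase *ELOVL2* (0.95) and the acylphosphatase *ACYP1* (0.94), and least like *MINDY2* (-0.97). Among the genes most like *PCK2* were the mitochondrial carnitine palmitoyltransferase *CPT2* (0.93) and *CIRBP* (0.93), and it was least like the chaperone cofactor *STIP1* (-0.99). *PCK1* was most like *RBMS1* (0.97), *CHAC1* (0.94) and *SGTB* (0.94), and least like *DOCK11* (-0.98). *G6PC* was most like *LARP7* (0.96), *GSDMD* (0.95) and *TRPM8* (0.91) and least like *SGMS1* (-0.97). *SLC37A4* was most like *UBXN8* (0.96), *SPIDR* (0.95) and *TGIF1* (0.94) and least like *MAST3* (-0.95). *TAT* was most like *LRRC8D* (0.98), *PDE9A* (0.95) and *TM6SF1* (0.94) and least like *RAD9A* (-0.99). *PPARGC1A* was most like the Krüppel-like factor *KLF3* (0.98), *RAPH1* (0.98) and *MTX3* (0.97) and least like *CCNB1IP1* (-0.93). It had r of at least 0.8 with 2.64% of the 11040 genes, against 0.444% to 0.752% for the other 6.

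Genes of related pathways showed different partners for the members, and those named here were picked from the lists after their values were seen. *SIK1*, a kinase gene induced by cyclic AMP, had r = 0.86 with *PCK1* and 0.74 with *G6PC*. Over the 23 genes of glucagon and insulin signalling the median r was 0.27 with *PCK1* (-0.59 to 0.86) and 0.05 with *G6PC* (-0.52 to 0.74). *SIK1* had 5.47, 3.41, 3.95 and 9.45 FPKM in squalene pools, against 8.51, 3.6, 2.99 and 3.45 FPKM in control pools. *SDS*, the serine dehydratase, had r = 0.75 with *PCK1* and 0.74 with *G6PC*, and it too was highest in squalene pool 4 and control pool 1. *PCK2* instead followed pyruvate carboxylase (*PC*, r = 0.90), the mitochondrial enzyme that makes its substrate, and *CPT1A* (0.92), which admits fatty acids to the mitochondrion. *FBP1* followed the urea cycle genes *CPS1* (0.91) and *ARG1* (0.83) and ran against the pyruvate kinase *PKLR* (-0.84). *PPARGC1A* followed *NCOR1* (0.90), *IGFBP1* (0.88) and the glucocorticoid target *FKBP5* (0.87). Over the 11 glucocorticoid response genes r with *PPARGC1A* had a median of 0.34 and ran from -0.64 (*SGK1*) to 0.87, with 9 above 0. *TAT* followed *FAH* (0.87), the last enzyme of tyrosine breakdown. With *TAT* r was 0.25 for *HGD*, 0.19 for *HPD* and 0.35 for *GSTZ1*. With *FBP1* it was 0.35 for *FAH*, 0.64 for *HPD* and 0.23 for *GSTZ1*. Over 16 genes of tyrosine and other amino acid breakdown the median r was 0.365 with *TAT* and 0.59 with *FBP1*. *TAT* and *FBP1* each had a high r with a picked enzyme of tyrosine breakdown, but r between them was 0.21 (exact permutation p = 0.611, adjusted p = 0.802, rho = 0.12, exact permutation p = 0.793, adjusted p = 0.977).

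**Figure D5:**
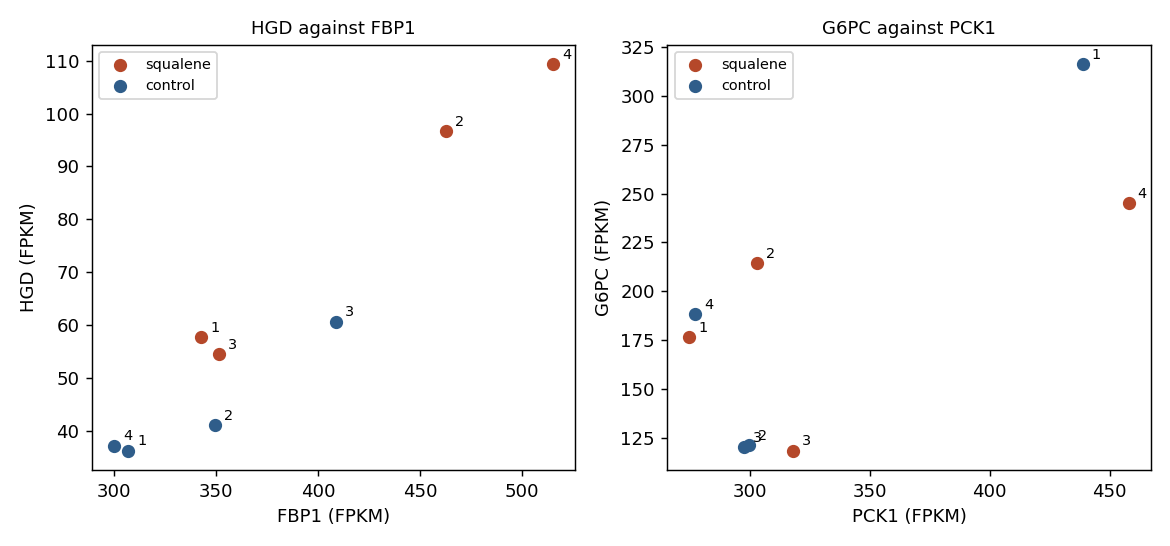
FPKM of *HGD* against *FBP1* (left) and of *G6PC* against *PCK1* (right), where a point is 1 squalene (red) or control (blue) pool with its pool number. *HGD* and *FBP1* line up over all 8 pools (r = 0.96). Both were fitted higher on squalene, and the diet means were not subtracted. For *G6PC* and *PCK1* r is 0.66, and it is -0.52 without both squalene pool 4 and control pool 1.

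Immune cell and endothelial genes had mostly negative r with the members. Over all pairs of genes at 1 FPKM or more, 59.8% had r above 0. The 10 T and NK cell markers summed to 46.88 to 76.12 FPKM in squalene pools and 60.33 to 76.97 FPKM in control pools, with the lowest sum in squalene pool 4. All 10 had r below 0 with *PCK1*, *FBP1*, *G6PC*, *SLC37A4*, *PPARGC1A* and *TAT*, and 9 of 10 with *PCK2*. Of 9 endothelial markers 1 was above 0 with *TAT*, 2 with *PCK2*, *FBP1* and *SLC37A4*, 3 with *PCK1*, and 4 with *G6PC* and *PPARGC1A*. The 17 interferon genes all had r below 0 with *PCK2* (median -0.73) and with *TAT* (median -0.33), whereas 16 of 17 were above 0 with *G6PC*. Genes of a list share the pools and can vary together, so the counts in this paragraph are descriptions. Of 9 hepatocyte markers other than *TAT*, 3 were above 0 with *PCK1* and *PPARGC1A*, 4 with *SLC37A4*, and 5 with the others. Of 8 stellate cell markers 4 were above 0 with *PCK2*, 5 with *PCK1* and *FBP1*, 7 with *SLC37A4*, and 6 with the others. The hepatocyte marker *ALB* took 5.15% to 9.04% of summed FPKM in squalene pools and 4.36% to 8.62% in control pools. The markers of kidney, the other gluconeogenic organ, summed to at most 0.07 FPKM in any pool. The part of other cell types in the members' values was not tested.

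In the rest of the pathway no gene of any list passed an adjusted p of 0.05, and most genes named in the next sentences are those with the smallest unadjusted p. Over all genes tested 47.1% were fitted above 0 and 4.36% had an unadjusted p under 0.05, and the counts of the lists stand beside these shares with no test. Of the 17 enzymes and carriers of the other steps, 14 were fitted above 0 with a median log2 fold change of 0.09, and 2 had an unadjusted limma p under 0.05, the aspartate aminotransferase *GOT1* and the pyruvate carrier subunit *MPC2*. *GOT1* had 39.66, 36.07, 32.2 and 38.53 FPKM in squalene pools, against 26.1, 33.34, 22.92 and 32.69 FPKM in control pools, a log2 fold change of 0.36 (adjusted p = 0.9997).

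Among 18 genes that bring substrates in or carry glucose out, 11 were fitted above 0, the median was 0.05, and 4 higher and 1 lower gene had an unadjusted p under 0.05, beside 2.08% higher and 2.28% lower over all genes. The higher ones were *GPD1* (0.41), glycerol kinase *GK* (0.47), the glucose exporter *SLC2A2* (0.38) and *SDSL* (0.27), and the lower one was the fructokinase *KHK* (-0.26), all with an adjusted p of 0.9997. *GPD1*, the glycerol 3-phosphate dehydrogenase of the cytosol, had 67.43, 57.59, 56.08 and 64.31 FPKM in squalene pools, against 39.25, 50.67, 56.53 and 40.04 FPKM in control pools, with 1 control pool reaching into the squalene range.

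The opposing glycolytic enzymes had a median of 0.05 over 11 genes. *PFKM*, a phosphofructokinase, had 1.8 to 2.83 FPKM in squalene pools and 1.36 to 1.66 FPKM in control pools (log2 fold change 0.57, unadjusted p = 0.00691, adjusted p = 0.9997), without overlap. *PKLR*, the liver pyruvate kinase of the last step, had a fitted value of -0.47 (unadjusted p = 0.0765). Of the 26 transcriptional regulators 9 were fitted above 0 (median -0.07), and *FOXO3* (-0.39) and *FOXA2* (-0.39) had an unadjusted p of 0.0259 and 0.0339. The 23 genes of glucagon and insulin signalling had a median of -0.04 and none had an unadjusted p under 0.05. The 16 genes of tyrosine and other amino acid breakdown had a median of 0.14 and 15 were above 0, led by *HGD* at 0.83 (unadjusted p = 0.00774, adjusted p = 0.9997). Medians were -0.25 over 11 glucocorticoid response genes, of which 2 were above 0, and -0.09 over 13 fasting targets, of which 2 were above 0. Each of these lists held 1 gene that was lower on squalene at an unadjusted p under 0.05, and none that was higher.

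The deposited list of single nucleotide polymorphism (SNP) sites, which gives 1 called base per pool, held 209 sites in these genes. They numbered 59 in *TAT*, 57 in *PPARGC1A*, 32 in *PCK1*, 27 in *FBP1*, 26 in *SLC37A4*, 8 in *G6PC* and none in *PCK2*. By the annotation 150 were intronic, 23 coding and 36 in other exonic sequence. At 8 coding sites the other base changed an amino acid, 4 of them in *PCK1* and 2 each in *PPARGC1A* and *TAT*, and at 14 it did not. The remaining site, in *SLC37A4*, is coding only in predicted transcripts and lies in an intron of the curated one, on which these changes were read. No site covered in all 8 pools separated the 2 diets.

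At 3 of the 8 sites every pool carried the base that differs from the genome, which gives G380D and I572V in *PCK1* and C430S in *PPARGC1A*. The other 5 varied among the pools. Their surroundings in the spliced coding sequence of the genome are shown because the called base changed an amino acid in some pools only. The codon is in capitals, and positions are counted from 1 at the first base of the start codon or at the first amino acid.
PCK1 codon 139: aagggtcgcacgATGtatgtcatcccg
PCK1 codon 252: ctgaggatggccAGCcggctggccaag
PPARGC1A codon 562: caaagaccccaaAGGatgcgctctcgt
TAT codon 191: aatttgttgccaGAGaagtcttgggaa
TAT codon 274: gtccccatcctgTCCtgtggagggctg
The change A415C in *PCK1* (M139L, at position 57932233 of chromosome 17) was called in 3 of 4 squalene pools and 4 of 4 control pools, and the genome base in squalene pool 4 only. A754G (S252G) was called in control pool 4 alone. In *PPARGC1A*, G1685A (R562K) was called in squalene pool 1 and control pool 2. In *TAT*, C821G (S274C) was called in 2 of 4 squalene and 3 of 4 control pools, and A572C (E191A) in all pools but control pool 2. A called base stands for 3 animals and the share of reads behind it is unknown, so no allele was set against a level. None of the 7 genes was among the 61 splicing events listed.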

How the data were processed

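Liver RNA of 8 pools of 3 pigs, enriched for poly-A tails, was sequenced with DNBSEQ technology. Clean reads were aligned to Sscrofa11.1 by the authors using HISAT2, for which no version is given. FPKM values with 2 decimals were deposited for every gene in each pool, so the depth of a single pool is not known and no count model was fitted. The authors deposited estimated counts only as sums over the pools of a diet, used here for depth, beside log2 ratios, p-values and q-values of their own comparison, which were not used. No source used here names the callers of SNP sites or splicing events.

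Diets were compared with limma 3.58.1 in R 4.3.3 (lmFit, eBayes with a trend, no block for the pool number) on log2(FPKM + 0.1) over genes averaging 0.1 FPKM or more, with Benjamini-Hochberg adjustment at 0.05. Fold changes are given on this scale, which understates those of low genes. Ratios, level orders and correlations were tested with two-sided exact permutations in Python 3.11.15 (numpy 2.4.6, scipy 1.17.1, pandas 2.3.3), and the tests were checked on simulated data. Promoter windows, coordinates and coding changes came from the RefSeq annotation of Sscrofa11.1, read with pysam 0.24.0. It held 20331 of the 20430 gene identifiers, and the reference base matched it at every SNP site of the 7 genes. Groups and pool numbers came from the sample labels.

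The members and lists were chosen with earlier results of these data known. The text names all members, of each list up to 4 genes of smallest p and the most abundant, per member the 3 genes of highest and the 1 of lowest r, and the genes of the ratios, of which those that bear on a statement are given. Some genes that the rule names, and 1 of the 4 ratios, are not reported here. Genes outside this rule are marked. Alternatives covered the pseudocount, the filter, the scaling, the variance model, a replicate block and each pool left out.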

Additional observations from a re-analysis of the deposited data

Results flagged for a closer look

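In groups of 4 pools, a pool was singled out where its gap to the nearest other pool exceeded Dixon's critical share of the whole range. Of 22 groups tested, 2 met this, where chance gives about 1 in 20 among independent groups. These groups are not independent, since the ratios are built from the members. Both flags hold the same *PCK1* value, so they count 1 outlying value 2 times. *PCK1* at 438.9 FPKM in control pool 1 had a gap of 0.862 of the range of the control pools. The ratio *PCK1*/*PCK2* of 3.232 in the same pool had a gap of 0.923 of the range.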

How the results depend on the processing

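The count of genes past the threshold was 0 in every alternative but 2. Without the variance trend it was 1, *LOC110259523*, and without control pool 2 it was 1, *LOC110256963*, so leaving out single pools gave 0 to 1. No member passed the threshold in any alternative, and no pair of members did. The fitted log2 fold change of *PCK2* turned to -0.00042 after quantile normalization. With each pool left out in turn, fitted values ranged from -0.11 to 0.19 for *PCK1*, -0.064 to 0.088 for *PCK2*, 0.17 to 0.37 for *FBP1*, -0.087 to 0.38 for *G6PC*, 0.14 to 0.27 for *SLC37A4*, -0.051 to 0.12 for *PPARGC1A* and -0.014 to 0.30 for *TAT*. The log2 ratio difference ranged from -0.066 to 0.25 for *PCK1*/*PCK2*, from -0.35 to 0.17 for *G6PC*/*SLC37A4* and from 0.13 to 0.34 for *FBP1*/*PFKL*. Scaled as TPM, r turned to 0.016 for *G6PC* and *SLC37A4* and to 0.0079 for *G6PC* and *PPARGC1A*. With each pool left out, r changed sign for 11 pairs, with a range of -0.22 to 0.56 for *PCK1* and *PCK2*, -0.27 to 0.76 for *PCK1* and *FBP1*, -0.020 to 0.80 for *PCK1* and *SLC37A4*, -0.19 to 0.39 for *PCK2* and *TAT*, -0.26 to 0.48 for *FBP1* and *G6PC*, -0.087 to 0.46 for *FBP1* and *PPARGC1A*, -0.30 to 0.59 for *FBP1* and *TAT*, -0.47 to 0.18 for *G6PC* and *SLC37A4*, -0.31 to 0.24 for *G6PC* and *PPARGC1A*, -0.070 to 0.71 for *SLC37A4* and *TAT* and -0.061 to 0.55 for *PPARGC1A* and *TAT*. The cause was not tested.

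Same-numbered pools of the diets correlated at 0.14, 0.03, 0.08 and -0.08 in their deviations from the diet means, and 2 of 4 pools correlated best with their own number, so the number was not taken as a pairing. With a replicate block 0 genes passed the threshold, and 412 higher and 335 lower genes had an unadjusted p under 0.05, beside 308 and 337 without it. Pools of 3 animals hide the spread of single pigs, 4 pools a diet leave wide intervals for *G6PC*, and 1036 to 1058 added fragments limit *PPARGC1A*.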
